A study of Camellia sinensis and Camellia sinensis var. assamica with 18 samples.

Results

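The genes described here carry, reduce and assimilate nitrogen and move amino acids in tea leaves. They are the loci whose product description names a nitrate, ammonium or amino acid transporter, an amino acid permease, a protein of the NRT1/PTR family, a nitrate or nitrite reductase, or glutamine synthetase, glutamate synthase, glutamate dehydrogenase or asparagine synthetase. Of 41021 loci, 139 had such a description, and the 94 of these with at least 1 FPKM (fragments per kilobase of transcript, scaled by the number of mapped fragments) in at least 3 of the 18 libraries are the members, among 29019 loci that passed the same filter. The rule uses descriptions and the filter on level, and no difference between groups. The other 45 loci were below the filter, and the median of their highest values was 0.377 FPKM. In 46 of the members every library reached 1 FPKM, and 0 passed the filter through 1 group only. By description, 33 members are NRT1/PTR family proteins, 4 ammonium transporters, 2 high-affinity nitrate transport proteins of the NRT2 and NRT3 type and 1 another nitrate transporter. The amino acid transporters number 11 amino acid permeases, 8 cationic amino acid transporters, 7 lysine histidine transporters and 11 others. The enzymes are 6 glutamine synthetases, 4 glutamate synthases, 4 glutamate dehydrogenases, 2 asparagine synthetases and 1 nitrite reductase, and 0 loci were described as a nitrate reductase.

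Leaf RNA was sequenced from seedlings of the tea plant, Camellia sinensis, raised in tissue culture, in the cold-tolerant cultivar Shuchazao (SCZ) and in the cold-sensitive cultivar Yinghong 9 (YH9), which belongs to the variety assamica. Reads of both were aligned to 1 tea genome, so a difference between the cultivars in level and one in how well reads of assamica match that genome cannot be told apart, also for loci at 0 counts in a cultivar. Non-acclimated (NA) leaves were harvested on day 0 from plants with days of 25 °C and nights of 20 °C. Cold-acclimated (CA) leaves were taken on day 14, after 7 days at 10 °C and 4 °C and 7 days at 4 °C and 0 °C, and de-acclimated (DA) leaves on day 21, after 7 days back at 25 °C and 20 °C. Each of the 6 groups had 3 libraries. The labels number the replicates without naming the plants behind them, so the p-values measure the spread between these libraries, which may in part be technical. Stage and day of harvest changed together and cannot be told apart.

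Roots supply leaves with nitrate and amino acids through the xylem. In the leaf, nitrate is reduced to nitrite in the cytosol and nitrite to ammonium in the plastid, and glutamine synthetase and glutamate synthase together bind the ammonium into glutamine and glutamate, from which the other amino acids receive their nitrogen. The same pair of enzymes recaptures ammonium set free by photorespiration, and tea plants are known for keeping much of their nitrogen as the amino acid theanine. Amino acid and nitrate transporters then load these compounds into vacuoles, phloem and growing organs.

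Library totals ranged from 47291392 to 78305612 estimated counts, in each of the 18 libraries more than the valid reads that the study lists for it, so they are not numbers of reads. Replicates resembled each other less in SCZ than in YH9. Over all tested loci the mean correlation of a library with the other libraries of its group, across genes on log2(FPKM + 1), was 0.887 for SCZ_CA replicate 2 and 0.890 for SCZ_NA replicate 1, the lowest values, and between 0.949 and 0.969 in YH9. Reads come from whole leaves, in which fewer cells of a type and less RNA per cell cannot be told apart. Of 20 tested mesophyll markers (light-harvesting proteins and Rubisco small subunits, 22 loci in all), 16 fell in SCZ_CA and 16 fell in YH9_CA, where 1 rose. Their summed level was 1636 to 6949.8 FPKM in SCZ_CA against 24701 to 29963 FPKM in SCZ_NA, and 5706 to 6584 FPKM in YH9_CA against 20587 to 28471 FPKM in YH9_NA. In SCZ_CA 2 of the 22 loci were at 0 in all libraries, as were 2 in YH9_CA. The sum was 4940.4 to 9159.7 FPKM in SCZ_DA and 5303 to 7199 FPKM in YH9_DA, below all NA libraries of the cultivar. Of the 20 tested, 9 rose and 2 fell in SCZ_DA vs. SCZ_CA, where 15.6% of all loci rose and 13.5% fell. In YH9_DA vs. YH9_CA 9 rose and 3 fell, where 13.1% of all loci rose and 10.4% fell. Of 20 tested xylem and secondary wall markers 13 fell and 1 rose in SCZ_CA and 4 fell in YH9_CA, with sums of 38.2 to 72.3 FPKM in SCZ_CA against 105 to 313 FPKM in SCZ_NA and 76.0 to 127 FPKM in YH9_CA against 135 to 412 FPKM in YH9_NA. Of 9 phloem markers 1 rose and 1 fell in SCZ_CA, and their sum was 41.9 to 91.1 FPKM in SCZ_CA against 43.4 to 75.3 FPKM in SCZ_NA and 24.4 to 36.7 FPKM in YH9_CA against 32.1 to 45.9 FPKM in YH9_NA. The single root endodermis locus was at 0 in every SCZ and YH9_CA library. Of all tested loci, 19.1% fell and 15% rose in SCZ_CA, and 14.2% fell and 11.7% rose in YH9_CA. The part of these markers in the results was not tested.

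In both cultivars more of the nitrogen genes were lower than higher in cold-acclimated leaves. A gene is called changed where edgeR's quasi-likelihood test gave a Benjamini-Hochberg adjusted p under 0.05 over all 29019 loci and at least a 2-fold difference. In SCZ_CA vs. SCZ_NA 46 of the 94 members were called (48.9%), 10 higher and 36 lower, where 34.1% of all tested loci were called (15% higher, 19.1% lower). In YH9_CA vs. YH9_NA 37 were called (39.4%), 9 higher and 28 lower, against 25.8% of all loci (11.7% higher, 14.2% lower). The median log2 fold change of the members was −0.83 in SCZ and −0.32 in YH9, and that of all loci −0.06 and −0.01. The calls met in 28 genes, 5 higher and 23 lower in both cultivars, which is 60.9% of the SCZ calls and 75.7% of the YH9 calls, and 0 genes were called in opposite directions. Over all tested loci 49.3% of the SCZ calls and 65.1% of the YH9 calls were shared in direction, and 1.61% of the loci called in both had opposite directions. When only the 2 compared groups set the spread, 26 members were called in SCZ (6 higher, 20 lower) and 39 in YH9. The share of all loci called in that fit is not given here, so whether the members exceeded it was not tested. Leaving out SCZ_CA replicate 2, which stood apart, gave 43 calls in SCZ.

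**Figure D1:**
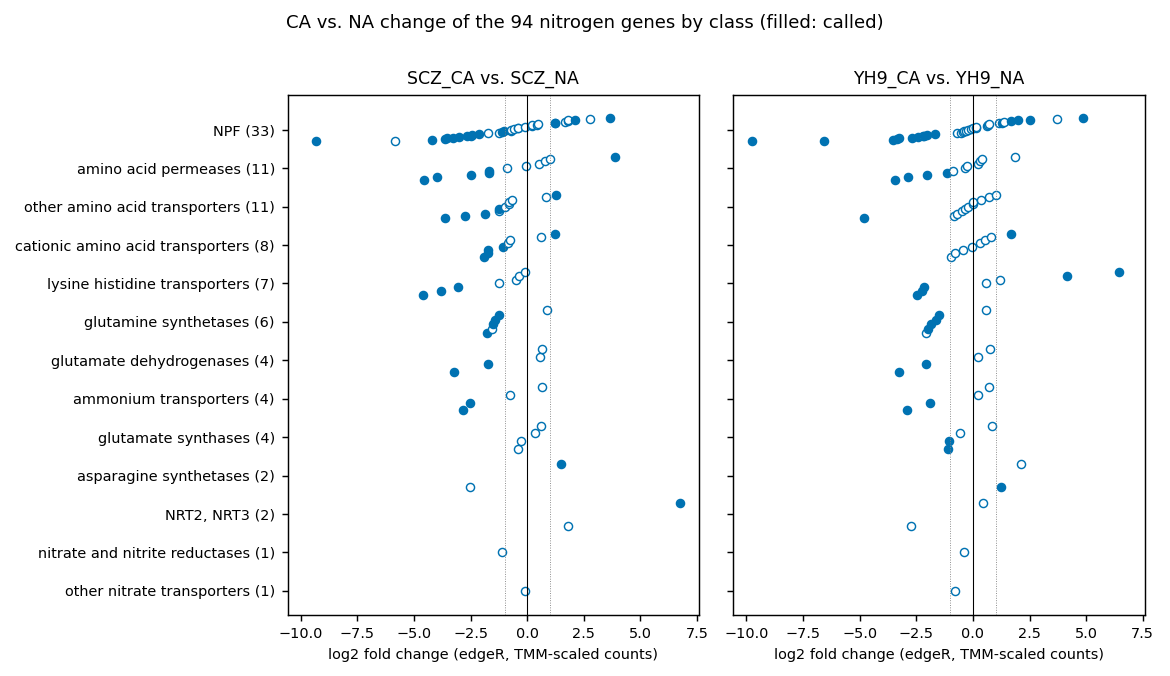
The log2 fold change of CA vs. NA (x axis, edgeR on TMM-scaled counts) for each of the 94 genes, one row per class with its number of genes, in SCZ (left) and YH9 (right), with filled points for called genes and dotted lines at a 2-fold change. Glutamine synthetases, glutamate dehydrogenases and ammonium transporters have their called genes on the left in both cultivars. The rightmost SCZ point is a gene with 0 counts in SCZ_NA. The leftmost point of each panel is NPF5.1, CSS040138, with 0 counts in all CA libraries. The fitted values of these points are no measure of their size.

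Glutamine synthetase, which joins ammonium to glutamate, had the highest level of all these genes. In CA 4 of its 6 loci fell in both cultivars, where 19.1% of all loci fell in SCZ and 14.2% in YH9. Summed over the 6 loci, its level was 343, 247 and 289.8 FPKM in SCZ_CA, against 886, 881 and 664 FPKM in SCZ_NA. In YH9_CA the sum was 398, 364 and 383 FPKM, against 1071, 1337 and 965 FPKM in YH9_NA. No CA library reached the lowest NA library of its cultivar. The files give no subcellular form for 5 of the loci, and 1, CSS030824, is described as the chloroplast leaf isozyme, the form that recaptures photorespiratory ammonium in other plants. Reads of near-identical copies may be shared among these loci.

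The most abundant locus, CSS018046, had 170.4, 86.1 and 133 FPKM in SCZ_CA, against 488, 309 and 286 FPKM in SCZ_NA (log2 fold change −1.41 ± 0.34 SE, edgeR adjusted p = 0.00388). It had 206, 153 and 159.5 FPKM in YH9_CA, against 545, 479 and 406 FPKM in YH9_NA (log2 fold change −1.51 ± 0.34 SE, edgeR adjusted p = 0.00337). All CA libraries lay below all NA libraries, and SCZ_NA replicate 1 was the highest in SCZ. Without that library the SCZ decrease was less than 2-fold (log2 fold change −0.90, adjusted p = 0.022 by edgeR). The chloroplast isozyme CSS030824 had 75.2, 34.4 and 83.8 FPKM in SCZ_CA, against 167, 168 and 169 FPKM in SCZ_NA (log2 fold change −1.23 ± 0.30 SE, edgeR adjusted p = 0.00446). Its YH9 values were 85.7, 111 and 133 FPKM in YH9_CA, against 325, 371 and 300.1 FPKM in YH9_NA (log2 fold change −1.64 ± 0.31 SE, edgeR adjusted p = 0.00096). The SCZ_NA libraries were nearly equal and every CA library lay below them, and the SCZ call was lost without SCZ_CA replicate 2, the lowest library (log2 fold change −0.93, adjusted p = 0.0102 by edgeR). Another locus, CSS043906, averaged 63.5 ± 18.1 FPKM in SCZ_CA and 243 ± 106 FPKM in SCZ_NA, and 87.4 ± 11.5 FPKM in YH9_CA and 306 ± 150.4 FPKM in YH9_NA (SD, n = 3 each), with log2 fold changes of −1.78 in SCZ and −1.83 in YH9. The SCZ calls of CSS018046 and CSS030824 were also lost when only SCZ_CA and SCZ_NA set the spread (adjusted p = 0.0872 and 0.0873 by edgeR).

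After de-acclimation the same 4 glutamine synthetase loci were called higher in DA than in CA in both cultivars (15.6% of all loci in SCZ and 13.1% in YH9). None of the 6 was called against NA by edgeR (1 at an unadjusted p under 0.05 in SCZ and 0 in YH9, and 0 by DESeq2 or limma). CSS018046 had 400.1, 395 and 319 FPKM in SCZ_DA and 459, 583 and 469 FPKM in YH9_DA. CSS030824 had 270.2, 269.9 and 202 FPKM in SCZ_DA and 429, 497 and 423 FPKM in YH9_DA. For both genes every DA library lay above every CA library of its cultivar. The increase of CSS030824 had a log2 fold change of 1.73 (SE 0.31) in SCZ and 1.89 (SE 0.31) in YH9 for DA vs. CA. That of CSS043906 in SCZ (log2 fold change 1.22 ± 0.37 SE, edgeR adjusted p = 0.0173) was lost without SCZ_CA replicate 1 or 3 or SCZ_DA replicate 1 (adjusted p = 0.0523 to 0.0893 by edgeR) and with only the 2 groups setting the spread (adjusted p = 0.0645 by edgeR).

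SCZ and YH9 differed at every stage in 3 less abundant glutamine synthetase loci, all higher in SCZ, where 6.02% of all loci were. CSS050989 had 25.2, 15.6 and 12.2 FPKM in SCZ_NA, against 1.79, 1.33 and 2.23 FPKM in YH9_NA (log2 fold change 3.43 ± 0.41 SE, edgeR adjusted p = 3.25e-05). In the cold it had 8.37, 4.26 and 5.35 FPKM in SCZ_CA, against 0.275, 0.491 and 0.547 FPKM in YH9_CA (log2 fold change 3.92 ± 0.43 SE, edgeR adjusted p = 1.37e-05). The lowest SCZ library of each stage was above the highest YH9 library of that stage, and the locus fell in CA in both cultivars (log2 fold changes −1.51 in SCZ and −2.002 in YH9). Its SCZ decrease was lost without SCZ_NA replicate 1 (log2 fold change −0.93, adjusted p = 0.0365 by edgeR) and with only SCZ_CA and SCZ_NA setting the spread (adjusted p = 0.0723 by edgeR), and its YH9 decrease was under 2-fold by limma on log2(FPKM + 1). CSS005056 had 12.7, 20.7 and 16.7 FPKM in SCZ_NA, against 6.27, 8.59 and 7.16 FPKM in YH9_NA (log2 fold change 1.20 ± 0.28 SE, edgeR adjusted p = 0.00568), and 27.9, 37.7 and 18.1 FPKM in SCZ_CA, against 8.94, 10.7 and 14.5 FPKM in YH9_CA (log2 fold change 1.49 ± 0.29 SE, edgeR adjusted p = 0.00104). It was the 1 glutamine synthetase with positive values in CA in both cultivars: its log2 fold change of CA vs. NA was 0.88 in SCZ and 0.59 in YH9, under the 2-fold line in both. The low locus CSS016927, named after its values were seen, averaged 4.32 ± 2.29 FPKM in SCZ_NA and 0.467 ± 0.225 FPKM in YH9_NA (SD, n = 3 each). The difference between the cultivars in the CA response was called for none of the 6 loci by edgeR (0 at an unadjusted p under 0.05, 0 by DESeq2 and 0 by limma) and was 0.10 (SE 0.47) on the log2 scale for CSS018046 and 0.40 (SE 0.42) for CSS030824.

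Glutamate synthase turns glutamine and 2-oxoglutarate into glutamate, with electrons from ferredoxin or from NADH. The ferredoxin form CSS029241, described as chloroplastic, had 48.3, 57.1 and 63.9 FPKM in YH9_CA, against 104, 119.8 and 119 FPKM in YH9_NA (log2 fold change −1.05 ± 0.26 SE, edgeR adjusted p = 0.00627). In SCZ it had 110.3, 55.4 and 69.9 FPKM in SCZ_CA, against 115, 103 and 117 FPKM in SCZ_NA (log2 fold change −0.40 ± 0.26 SE, edgeR adjusted p = 0.223). The YH9 groups did not overlap, while SCZ_CA replicate 1 lay within the SCZ_NA range, and the YH9 decrease was less than 2-fold without YH9_CA replicate 1 (log2 fold change −0.96, adjusted p = 0.0307 by edgeR). The second ferredoxin locus, CSS022132, fell in YH9 as well (log2 fold change −1.103 ± 0.27 SE, edgeR adjusted p = 0.00615) and had a log2 fold change of −0.26 in SCZ. The difference between the cultivars was not called for either (0.65, SE 0.36, and 0.84, SE 0.38). Both were higher in YH9_DA than in YH9_CA, with called log2 fold changes of 1.501 and 1.41. The NADH form CSS035582 had 33.3, 39.4 and 46.5 FPKM in SCZ_DA, against 14.5, 19.4 and 19.6 FPKM in SCZ_NA (log2 fold change 1.12 ± 0.24 SE, edgeR adjusted p = 0.0198), all DA libraries above all NA libraries. This call was lost without SCZ_NA replicate 2 or 3 or SCZ_DA replicate 3 (adjusted p = 0.0589 to 0.102 by edgeR) and with only the 2 groups setting the spread (adjusted p = 0.147 by edgeR). The other NADH locus, CSS020045, was called in no comparison.

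**Figure D2:**
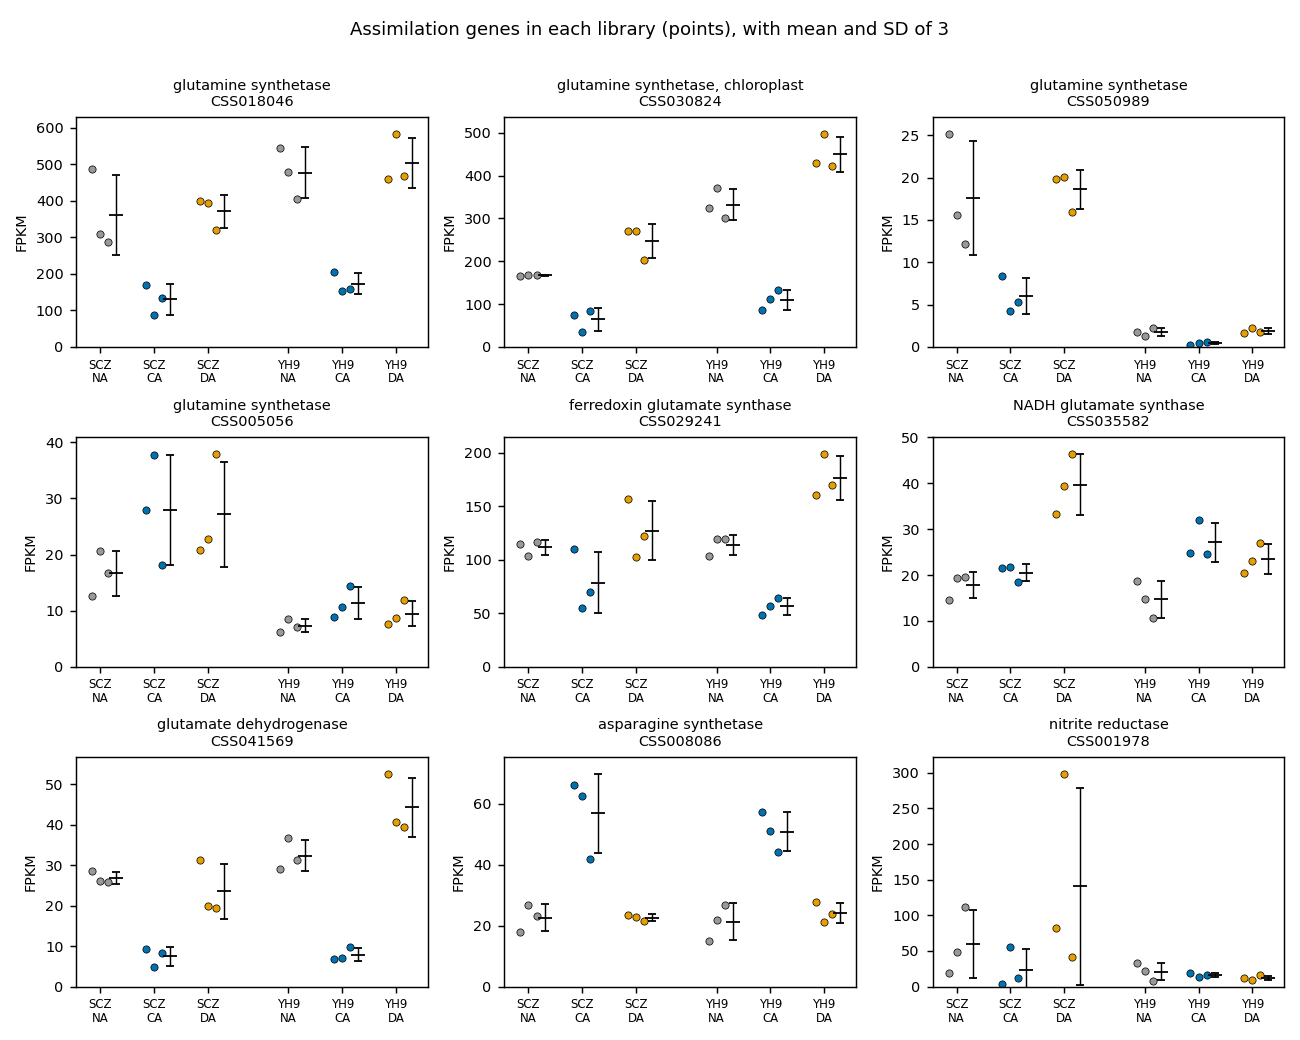
FPKM (y axis, from 0) of 9 assimilation genes in each library, coloured by stage, with the mean and SD of 3 libraries beside the points of each group and SCZ to the left of YH9. The 3 glutamine synthetases of the upper row and glutamate dehydrogenase CSS041569 are low in CA and back up in DA, asparagine synthetase CSS008086 is high in CA, and the nitrite reductase varies widely among SCZ libraries.

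Glutamate dehydrogenase interconverts glutamate with 2-oxoglutarate and ammonium. GDHB, CSS041569, had 9.33, 4.87 and 8.34 FPKM in SCZ_CA, against 28.6, 26.1 and 25.9 FPKM in SCZ_NA (log2 fold change −1.72 ± 0.28 SE, edgeR adjusted p = 0.00022). In YH9 it had 6.87, 6.93 and 9.71 FPKM in YH9_CA, against 29.1, 36.6 and 31.3 FPKM in YH9_NA (log2 fold change −2.08 ± 0.28 SE, edgeR adjusted p = 8.7e-05). The groups were far apart in both cultivars, and the DA libraries, 31.3, 19.8 and 19.4 FPKM in SCZ and 52.6, 40.7 and 39.4 FPKM in YH9, were again above all CA libraries. A low locus of glutamate dehydrogenase 2, CSS004444, also fell, to 0, 0.697 and 0.0999 FPKM in SCZ_CA, against 1.39, 4.27 and 2.85 FPKM in SCZ_NA (log2 fold change −3.23 ± 0.92 SE, edgeR adjusted p = 0.0111). YH9 leaves had 1.15, 0.530 and 0.659 FPKM in YH9_CA, against 4.41, 5.17 and 12.8 FPKM in YH9_NA (log2 fold change −3.25 ± 0.91 SE, edgeR adjusted p = 0.0128), a call lost without YH9_NA replicate 3, YH9_CA replicate 2 or YH9_CA replicate 3 (adjusted p = 0.0503 to 0.0545 by edgeR), and the SCZ call was lost with only the 2 groups setting the spread (adjusted p = 0.128 by edgeR). The 2 loci described as NADP-specific forms, CSS039877 and CSS036686, were called in neither cultivar and had positive log2 fold changes, 0.56 and 0.64 in SCZ and 0.74 and 0.24 in YH9.

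Asparagine synthetase moves nitrogen from glutamine to aspartate, and asparagine is a nitrogen-rich form for transport and storage. In contrast to the glutamine synthetases, asparagine synthetase 3, CSS008086, rose in the cold in both cultivars. It had 66.0, 62.7 and 41.9 FPKM in SCZ_CA, against 17.9, 26.8 and 23.0 FPKM in SCZ_NA (log2 fold change 1.47 ± 0.19 SE, edgeR adjusted p = 3.33e-05), and 57.1, 51.1 and 44.2 FPKM in YH9_CA, against 15.1, 22.0 and 26.9 FPKM in YH9_NA (log2 fold change 1.24 ± 0.19 SE, edgeR adjusted p = 0.000197). Every CA library lay above every NA library of either cultivar, and the call held with each single library left out. In DA it fell to 23.5, 22.8 and 21.4 FPKM in SCZ_DA and 27.6, 21.02 and 23.8 FPKM in YH9_DA, with log2 fold changes against CA of −1.504 in SCZ and −1.23 in YH9. The cultivars were not called different at any stage, with log2 differences of 0.12 (SE 0.19) at NA, 0.35 (SE 0.19) at CA and 0.08 (SE 0.19) at DA. Asparagine synthetase 1, CSS033366, was low, with 0.0643, 0.0317 and 0.0630 FPKM in SCZ_CA, against 0.0290, 0.608 and 0.554 FPKM in SCZ_NA, and at most 9 counts in a YH9_CA library. It was not called in CA vs. NA (log2 fold changes −2.51 in SCZ and 2.13 in YH9). It was called higher in DA than in CA in SCZ (log2 fold change 4.39) and YH9 (5.01), and higher in SCZ_NA than in YH9_NA (4.99). Each of these calls was lost in several fits that left out a library, and by limma. It lies on scaffold Scaffold2648 from 961598 to 966721 on the plus strand, and is 1 of 15 members with coordinates in the table, which does not name the assembly version or the exons.

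Nitrite reductase, the plastid enzyme that makes ammonium from nitrite, was represented by 1 locus, CSS001978, whose enzyme number in the table is that of a sulfite reductase. Its levels spread widely in SCZ, with 18.9, 48.0 and 112 FPKM in SCZ_NA, 3.11, 56.1 and 12.2 FPKM in SCZ_CA and 82.4, 299 and 41.1 FPKM in SCZ_DA. In YH9 it had 32.5, 21.7 and 8.06 FPKM in YH9_NA, 19.1, 13.9 and 16.5 FPKM in YH9_CA and 11.7, 9.83 and 15.7 FPKM in YH9_DA. Stages overlapped in both cultivars and none was called different from another. At DA all SCZ libraries were above all YH9 libraries (log2 fold change 3.64 ± 0.95 SE, edgeR adjusted p = 0.00917), a call lost without SCZ_DA replicate 2, the highest library (log2 fold change 2.52, adjusted p = 0.0507 by edgeR).

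Ammonium transporters carry ammonium across the plasma membrane, and the 2 most abundant of the 4 fell in the cold in both cultivars. Of all loci 19.1% fell in SCZ and 14.2% in YH9. AMT3.1-like, CSS022980, had 4.38, 9.23 and 5.39 FPKM in SCZ_CA, against 52.9, 53.2 and 40.1 FPKM in SCZ_NA (log2 fold change −2.83 ± 0.27 SE, edgeR adjusted p = 3.11e-06). It had 12.6, 14.4 and 12.2 FPKM in YH9_CA, against 46.6, 46.1 and 52.2 FPKM in YH9_NA (log2 fold change −1.91 ± 0.26 SE, edgeR adjusted p = 8.35e-05). The NA libraries of the cultivars overlapped, and the CA libraries of SCZ were all below those of YH9, a difference that was not called (log2 fold change −0.84 ± 0.25 SE, edgeR adjusted p = 0.0188). By DA it had 39.2, 51.8 and 38.8 FPKM in SCZ_DA and 50.1, 50.4 and 45.6 FPKM in YH9_DA, overlapping NA in both cultivars. The difference in its CA response between SCZ and YH9 was −0.92 on the log2 scale (SE 0.35, adjusted p = 0.174 by edgeR).

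An AMT1-type locus, CSS047108, resembling the high-affinity ammonium importer AMT1.1 of Arabidopsis, had 7.30, 9.41 and 4.12 FPKM in SCZ_CA, against 43.8, 45.4 and 39.0 FPKM in SCZ_NA (log2 fold change −2.53 ± 0.35 SE, edgeR adjusted p = 6.16e-05). In YH9_CA it had 12.9, 13.9 and 9.49 FPKM, against 126, 71.0 and 67.9 FPKM in YH9_NA (log2 fold change −2.92 ± 0.36 SE, edgeR adjusted p = 3.92e-05). Groups did not overlap in either cultivar. In DA it reached 17.97, 27.9 and 13.5 FPKM in SCZ_DA and 32.1, 44.6 and 34.9 FPKM in YH9_DA, above all CA libraries and below all NA libraries of the same cultivar. Against NA these DA levels were not called (log2 fold change −1.19, SE 0.34, in SCZ and −1.45, SE 0.34, in YH9). AMT1.3, CSS010966, and the lowly expressed CSS021822 were called in no comparison. CSS010966 had 13.3, 0.875 and 5.70 FPKM in SCZ_CA, against 13.98, 12.2 and 9.15 FPKM in SCZ_NA, with SCZ_CA replicate 2 the lowest of all libraries.

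The NRT1/PTR family (NPF) holds transporters of nitrate, peptides and plant hormones, and its 33 members went both ways. In SCZ 5 rose and 12 fell, where 15% of all loci rose and 19.1% fell. In YH9 5 rose and 10 fell, where 11.7% of all loci rose and 14.2% fell. The most abundant, NPF5.2, CSS007532, belongs to a type known in Arabidopsis as the stress-responsive peptide transporter PTR3. It had 221, 80.4 and 63.3 FPKM in SCZ_CA, against 30.8, 51.9 and 31.6 FPKM in SCZ_NA (log2 fold change 1.78 ± 0.43 SE, edgeR adjusted p = 0.00415). YH9 leaves had 286, 322 and 294 FPKM in YH9_CA, against 63.7, 99.5 and 59.6 FPKM in YH9_NA (log2 fold change 1.98 ± 0.44 SE, edgeR adjusted p = 0.00294). The groups did not overlap, SCZ_CA replicate 1 stood far above the other SCZ_CA libraries, and both increases kept their call with each library left out. The lower levels in DA were called (log2 fold change −1.29 ± 0.43 SE, edgeR adjusted p = 0.0272 in SCZ and log2 fold change −1.36 ± 0.43 SE, edgeR adjusted p = 0.0258 in YH9), but in SCZ the call was lost without SCZ_CA replicate 1 or SCZ_DA replicate 2 or 3 (adjusted p = 0.0991 to 0.207 by edgeR) and in YH9 without YH9_CA replicate 1 or 2 or any of the 3 YH9_DA libraries (adjusted p = 0.0513 to 0.0814 by edgeR).

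Among the other NPF genes, NPF1.2-like CSS004099 showed the largest increases called in both cultivars. It had 15.4, 4.33 and 5.46 FPKM in SCZ_CA, against 1.24, 0.653 and 0.0577 FPKM in SCZ_NA (log2 fold change 3.65 ± 0.87 SE, edgeR adjusted p = 0.00357), and 6.82, 4.31 and 3.85 FPKM in YH9_CA, against 0.0949, 0.218 and 0.180 FPKM in YH9_NA (log2 fold change 4.88 ± 0.93 SE, edgeR adjusted p = 0.0011). CA and NA did not overlap, and by DA the gene was back at 1.07, 0.366 and 1.904 FPKM in SCZ_DA and 0.214, 0.339 and 0.307 FPKM in YH9_DA. In Arabidopsis NPF1.2 moves nitrate between xylem and phloem. NPF8.3, CSS016055, named like the dipeptide transporter PTR2 of Arabidopsis, averaged 9.23 ± 1.40 FPKM in YH9_CA and 1.59 ± 0.515 FPKM in YH9_NA (log2 fold change 2.51 ± 0.35 SE, edgeR adjusted p = 0.000111), and 7.67 ± 3.71 FPKM in SCZ_CA and 3.66 ± 1.25 FPKM in SCZ_NA (SD, n = 3 each). Its SCZ groups overlapped and the SCZ call (log2 fold change 1.21 ± 0.34 SE, edgeR adjusted p = 0.00973) was lost without SCZ_CA replicate 2 (log2 fold change 0.93, adjusted p = 0.044 by edgeR) and with limma on log2(FPKM + 1) (adjusted p = 0.0471, under 2-fold). A second NPF5.2-like locus, CSS050135, had 133, 46.1 and 86.8 FPKM in SCZ_CA, against 45.6, 28.5 and 45.9 FPKM in SCZ_NA (log2 fold change 1.24 ± 0.35 SE, edgeR adjusted p = 0.0105), with no overlap, and 62.4, 70.1 and 58.2 FPKM in YH9_CA, against 48.6, 36.6 and 32.1 FPKM in YH9_NA, under 2-fold (log2 fold change 0.65). The SCZ call was lost without SCZ_CA replicate 1 (log2 fold change 0.92, adjusted p = 0.0525 by edgeR) or SCZ_NA replicate 2 (log2 fold change 0.98, adjusted p = 0.0486 by edgeR) and with only the 2 groups setting the spread (adjusted p = 0.0957 by edgeR). A further NPF8.3 locus, CSS042363, had 10.2, 6.71 and 8.79 FPKM in YH9_CA, against 2.40, 3.104 and 5.03 FPKM in YH9_NA (log2 fold change 1.28 ± 0.40 SE, edgeR adjusted p = 0.0235), and 4.69, 1.999 and 1.75 FPKM in SCZ_CA, against 3.00, 5.501 and 5.56 FPKM in SCZ_NA, where the groups overlapped. Its YH9 call was lost without YH9_CA replicate 1 or 3 or YH9_NA replicate 1 or 2 (adjusted p = 0.0517 to 0.0886 by edgeR), and the difference in response was not called (−1.87, SE 0.57, adjusted p = 0.091 by edgeR). NPF5.6-like CSS050657 rose in both cultivars too, with log2 fold changes of 2.09 (SE 0.45) in SCZ and 1.67 (SE 0.45) in YH9.

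NPF genes that fell in both cultivars included NPF2.7, CSS032146, a type that releases nitrate from roots in Arabidopsis. It had 1.93, 1.301 and 2.30 FPKM in SCZ_CA, against 28.0, 34.0 and 13.5 FPKM in SCZ_NA (log2 fold change −3.64 ± 0.45 SE, edgeR adjusted p = 2.39e-05), and 4.07, 8.301 and 3.61 FPKM in YH9_CA, against 12.4, 24.3 and 28.6 FPKM in YH9_NA (log2 fold change −2.03 ± 0.42 SE, edgeR adjusted p = 0.00188). All CA libraries were below all NA libraries, and in DA it rose again to 18.1, 14.3 and 11.3 FPKM in SCZ_DA and 27.3, 20.1 and 26.7 FPKM in YH9_DA. The related NPF2.6-like CSS032144 averaged 0.160 ± 0.114 FPKM in SCZ_CA and 3.40 ± 2.99 FPKM in SCZ_NA, and 0.759 ± 0.605 FPKM in YH9_CA and 7.49 ± 5.46 FPKM in YH9_NA (SD, n = 3 each), and was called lower in CA in both. Of the NPF3.1 type, CSS020404 had 5.35, 4.11 and 1.99 FPKM in YH9_CA, against 25.4, 19.7 and 71.4 FPKM in YH9_NA (log2 fold change −3.33 ± 0.98 SE, edgeR adjusted p = 0.017), and 8.29, 1.77 and 4.75 FPKM in SCZ_CA, against 7.58, 58.5 and 43.0 FPKM in SCZ_NA (log2 fold change −2.64 ± 0.95 SE, edgeR adjusted p = 0.0362). Its YH9 groups did not overlap and its SCZ groups did, and the call was lost in YH9 without YH9_CA replicate 2 or 3 or YH9_NA replicate 3 (adjusted p = 0.0528 to 0.0687 by edgeR) and in SCZ without SCZ_CA replicate 2 or 3 or SCZ_NA replicate 2 or 3 (adjusted p = 0.0709 to 0.111 by edgeR). NPF3.1-like CSS053122 had 1.07, 2.16 and 2.095 FPKM in YH9_CA, against 16.7, 5.45 and 5.33 FPKM in YH9_NA, with no overlap (log2 fold change −2.45 ± 0.52 SE, edgeR adjusted p = 0.00223), and was not called in SCZ (log2 fold change −1.24 ± 0.50 SE, edgeR adjusted p = 0.0565). NPF5.1, CSS040138, on Scaffold844 from 2982226 to 2987333 on the minus strand and named after its values were seen, had 0 counts in all 6 CA libraries, so that it was at least 25.9-fold lower in SCZ_CA than in SCZ_NA and at least 32.3-fold lower in YH9_CA than in YH9_NA, taking 3 counts per library as the floor. Its NA level was low, 1.14 FPKM on average in SCZ_NA and 1.69 FPKM in YH9_NA. NPF6.3-like CSS006282, named like the nitrate transporter and sensor NRT1.1 of Arabidopsis, was called in no comparison and had 107, 12.6 and 33.2 FPKM in SCZ_CA, against 28.3, 62.5 and 53.6 FPKM in SCZ_NA. In YH9 its values were 84.0, 87.8 and 102 FPKM in YH9_CA, against 83.6, 90.4 and 108 FPKM in YH9_NA. SCZ_CA replicates 1 and 2 of this gene lay on either side of the whole NA range.

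**Figure D3:**
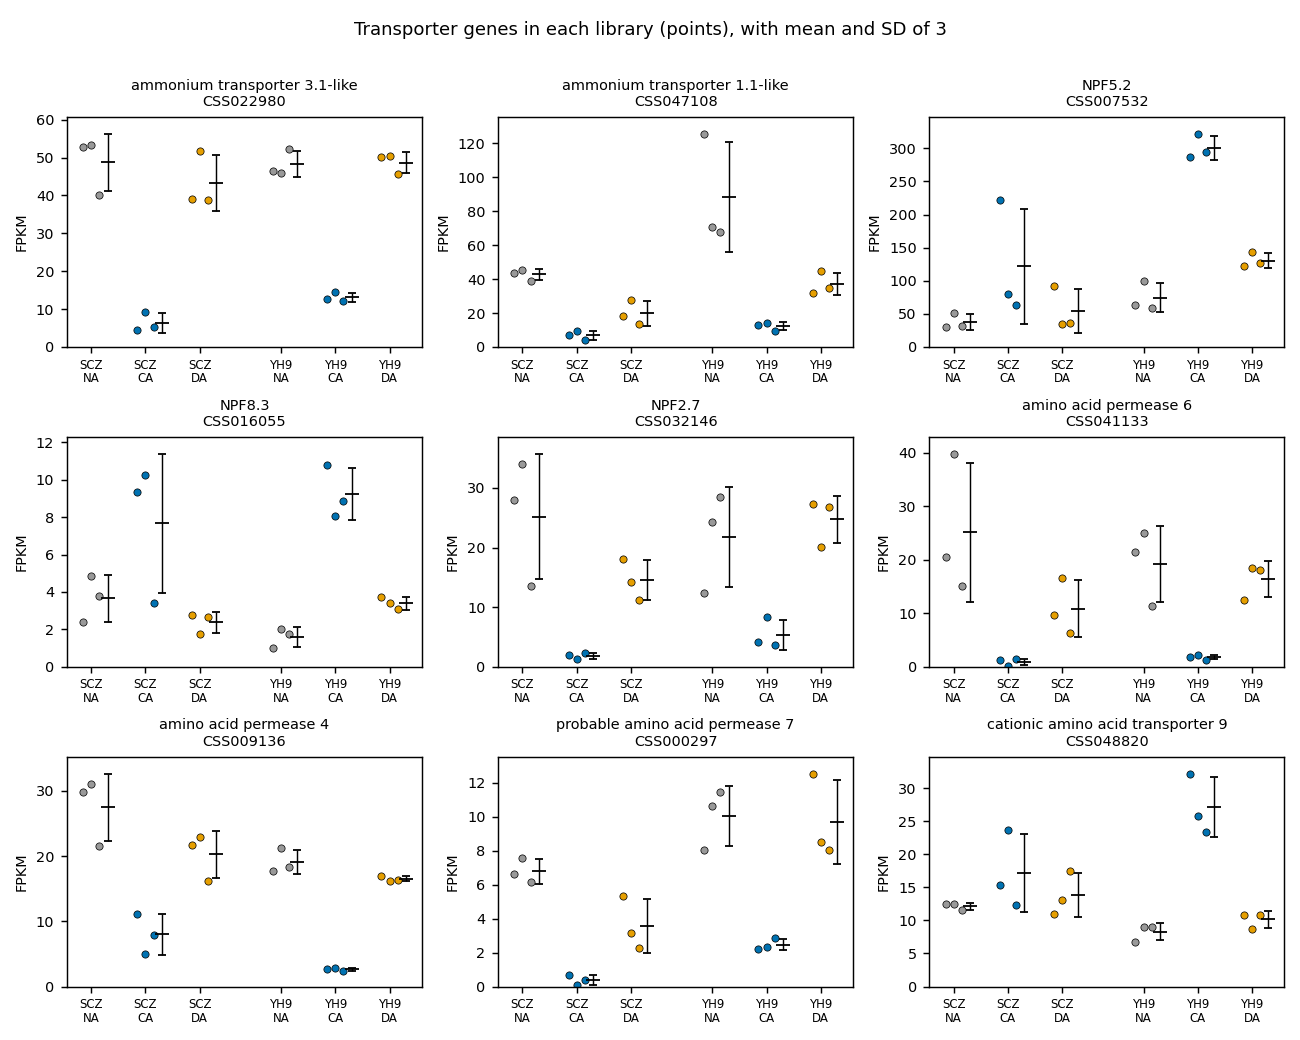
FPKM (y axis, from 0) of 9 transporter genes in each library, coloured by stage, with the mean and SD of 3 libraries beside the points of each group and SCZ to the left of YH9. Both ammonium transporters, NPF2.7 and the 3 amino acid permeases are low in CA, while NPF5.2, NPF8.3 and cationic amino acid transporter 9 are highest in CA in YH9.

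High-affinity nitrate transport in plants rests on NRT2 transporters and their partner protein NRT3. NRT2.4-like CSS022303, on Scaffold2552 from 2547539 to 2550106 on the plus strand, had 0 counts in all SCZ_NA libraries, against 1.73, 2.66 and 1.57 FPKM in YH9_NA, at least 80.9-fold lower in SCZ_NA (adjusted p = 0.00291 by edgeR). In the cold it had 0, 0.270 and 0.0376 FPKM in SCZ_CA, against 0.578, 0.145 and 0.190 FPKM in YH9_CA, and in DA 0.139, 0 and 0 FPKM in SCZ_DA, against 2.43, 0.686 and 1.29 FPKM in YH9_DA. At NA the cultivars were far apart, while in the cold their libraries overlapped. Its call in SCZ_CA vs. SCZ_NA, at least 4.66-fold, rests on 30 and 6 counts in SCZ_CA replicates 2 and 3 and was lost without SCZ_CA replicate 2 or any of the SCZ_NA libraries (adjusted p = 0.0575 to 0.15 by edgeR). NRT3.1, CSS013541, had 2.95, 12.4 and 2.56 FPKM in SCZ_CA, against 1.47, 0.865 and 3.32 FPKM in SCZ_NA, and 8.11, 15.9 and 5.75 FPKM in YH9_CA, against 5.33, 11.1 and 4.69 FPKM in YH9_NA, and was called in no comparison. Another locus described only as a nitrate transporter, CSS028875, averaged 38.1 ± 7.59 FPKM in SCZ_CA and 43.5 ± 14.1 FPKM in SCZ_NA, and 40.1 ± 5.16 FPKM in YH9_CA and 68.3 ± 24.8 FPKM in YH9_NA (SD, n = 3 each), with no call in the cold.

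Amino acid permeases are proton-coupled importers of amino acids. Of the 11 members 5 fell and 1 rose in SCZ, where 19.1% of all loci fell and 15% rose. The 4 called in YH9 all fell, where 14.2% of all loci fell and 11.7% rose. AAP6, CSS041133, showed the largest decrease of the class in both cultivars, with 1.19, 0.230 and 1.36 FPKM in SCZ_CA, against 20.6, 39.8 and 15.0 FPKM in SCZ_NA (log2 fold change −4.56 ± 0.62 SE, edgeR adjusted p = 5.01e-05). In YH9 it had 1.903, 2.18 and 1.35 FPKM in YH9_CA, against 21.4, 25.0 and 11.3 FPKM in YH9_NA (log2 fold change −3.45 ± 0.58 SE, edgeR adjusted p = 0.000468). All CA libraries lay below all NA libraries, and in DA the gene had 9.63, 16.6 and 6.24 FPKM in SCZ_DA and 12.5, 18.4 and 18.1 FPKM in YH9_DA. AAP4, CSS009136, had 11.1, 4.99 and 7.82 FPKM in SCZ_CA, against 29.8, 31.0 and 21.5 FPKM in SCZ_NA (log2 fold change −1.68 ± 0.26 SE, edgeR adjusted p = 0.000152), and 2.62, 2.84 and 2.44 FPKM in YH9_CA, against 17.7, 21.2 and 18.4 FPKM in YH9_NA (log2 fold change −2.89 ± 0.27 SE, edgeR adjusted p = 5.19e-06). Its CA level was higher in SCZ than in YH9 (log2 fold change 1.80 ± 0.26 SE, edgeR adjusted p = 0.000133), while the difference in response was not called (1.21, SE 0.36, adjusted p = 0.0864 by edgeR).

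Of 6 loci described as probable amino acid permease 7, 4 were called lower in SCZ_CA than in YH9_CA, where 14.4% of all loci were. The most abundant of the 6, CSS044012, was not among them, with 13.6, 7.22 and 6.37 FPKM in SCZ_CA, against 11.7, 26.7 and 17.96 FPKM in SCZ_NA, and 7.10, 6.55 and 10.7 FPKM in YH9_CA, against 10.2, 18.6 and 15.2 FPKM in YH9_NA, under 2-fold in both cultivars (log2 fold changes −0.89 and −0.87). Its CA and NA libraries overlapped in both cultivars, and it was higher in YH9_DA than in YH9_CA (log2 fold change 1.39 ± 0.29 SE, edgeR adjusted p = 0.00224). CSS035437 averaged 5.55 FPKM in SCZ_CA and 7.54 FPKM in YH9_CA and was not called between them. CSS000297 had 0.697, 0.0810 and 0.385 FPKM in SCZ_CA, against 2.23, 2.35 and 2.83 FPKM in YH9_CA (log2 fold change −2.45 ± 0.50 SE, edgeR adjusted p = 0.00171), and was lower than in NA in both cultivars (log2 fold changes −3.99, SE 0.53, in SCZ and −2.05, SE 0.49, in YH9). CSS028726 was lower in SCZ than in YH9 at all 3 stages. At NA it had 1.12, 2.43 and 1.22 FPKM in SCZ_NA, against 5.51, 5.39 and 3.85 FPKM in YH9_NA (log2 fold change −1.64 ± 0.51 SE, edgeR adjusted p = 0.0305), a call lost without SCZ_NA replicate 1 or 3 or YH9_NA replicate 1 or 2 (adjusted p = 0.0738 to 0.112 by edgeR). At CA it had 0.402, 0.288 and 0.0725 FPKM in SCZ_CA, against 3.0998, 5.86 and 8.99 FPKM in YH9_CA (log2 fold change −4.36 ± 0.58 SE, edgeR adjusted p = 6.71e-05). Every SCZ library was below every YH9 library of its stage. AAP3, CSS015807, was called in neither CA vs. NA comparison, and its 3 SCZ_CA libraries held 46.3, 1.48 and 15.3 FPKM. The increase in SCZ was that of a low AAP6-like locus, CSS046869, with 3.13, 1.01 and 0.993 FPKM in SCZ_CA, against 0.151, 0.0753 and 0.118 FPKM in SCZ_NA (log2 fold change 3.88 ± 1.06 SE, edgeR adjusted p = 0.00849), named here after its values were seen.

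Cationic amino acid transporters move arginine, lysine and other amino acids, several of them at the vacuole in Arabidopsis. In SCZ 4 of 8 fell and 1 rose, where 19.1% of all loci fell and 15% rose. In YH9 the 1 called gene rose, where 11.7% of all loci rose and 14.2% fell. CAT9, CSS048820, described as chloroplastic, had 32.2, 25.8 and 23.4 FPKM in YH9_CA, against 6.78, 9.06 and 9.04 FPKM in YH9_NA (log2 fold change 1.69 ± 0.25 SE, edgeR adjusted p = 0.00017). In SCZ it had 15.4, 23.7 and 12.3 FPKM in SCZ_CA, against 12.4, 12.5 and 11.5 FPKM in SCZ_NA (log2 fold change 0.60 ± 0.24 SE, edgeR adjusted p = 0.059), and the difference between the cultivars was not called (−1.085, SE 0.35, adjusted p = 0.104 by edgeR). The YH9 groups were far apart and the SCZ groups overlapped. CAT1-like CSS030185 had 5.98, 0.759 and 3.04 FPKM in SCZ_CA, against 15.6, 8.54 and 9.66 FPKM in SCZ_NA (log2 fold change −1.74 ± 0.53 SE, edgeR adjusted p = 0.0152), a call lost without SCZ_NA replicate 1 (log2 fold change −1.21, adjusted p = 0.082 by edgeR) and with only the 2 groups setting the spread (adjusted p = 0.123 by edgeR), and 23.2, 23.6 and 15.2 FPKM in YH9_CA, against 18.04, 11.7 and 19.4 FPKM in YH9_NA. Its CA level was lower in SCZ than in YH9 (log2 fold change −2.47 ± 0.54 SE, edgeR adjusted p = 0.00267), with no overlap. CAT2, CSS017462, the most abundant of the class, was called in no comparison and averaged 33.8 ± 20.1 FPKM in SCZ_CA and 60.6 ± 8.15 FPKM in SCZ_NA, and 70.3 ± 9.86 FPKM in YH9_CA and 70.6 ± 12.2 FPKM in YH9_NA (SD, n = 3 each). CAT7, CSS004368, was lower in SCZ at all 3 stages, with 0.278, 0.157 and 0.0442 FPKM in SCZ_CA, against 3.95, 4.504 and 4.45 FPKM in YH9_CA (log2 fold change −4.57 ± 0.68 SE, edgeR adjusted p = 0.000153). Chosen after its values were seen, it lost its NA call without SCZ_NA replicate 1 or 2 or any YH9_NA library (adjusted p = 0.0516 to 0.108 by edgeR).

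Lysine histidine transporters (LHT) take up neutral and acidic amino acids from outside the cell in Arabidopsis. All 7 had a negative log2 fold change in SCZ_CA vs. SCZ_NA, and 3 were called (19.1% of all loci called lower). In YH9 2 rose and 3 fell, where 11.7% of all loci rose and 14.2% fell. LHT1, CSS006116, the most abundant, was called in no comparison, with 9.61, 22.0 and 3.14 FPKM in SCZ_CA, against 16.6, 11.6 and 63.1 FPKM in SCZ_NA, and 28.2, 31.7 and 16.2 FPKM in YH9_CA, against 15.8, 14.8 and 20.2 FPKM in YH9_NA. LHT-like 8, CSS016896, fell in both cultivars, with 0.845, 0.330 and 0.335 FPKM in SCZ_CA, against 1.83, 8.92 and 3.94 FPKM in SCZ_NA (log2 fold change −3.08 ± 0.50 SE, edgeR adjusted p = 0.000234). It had 2.13, 2.91 and 1.37 FPKM in YH9_CA, against 5.02, 12.4 and 13.5 FPKM in YH9_NA (log2 fold change −2.27 ± 0.48 SE, edgeR adjusted p = 0.00237). CA libraries were below all NA libraries of their cultivar.

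Of the 11 other amino acid transporters 1 rose and 4 fell in SCZ, where 15% of all loci rose and 19.1% fell. In YH9 1 fell, where 14.2% of all loci fell. The locus described as vacuolar amino acid transporter 1, CSS028163, had 35.1, 42.7 and 21.7 FPKM in SCZ_CA, against 11.8, 28.6 and 22.1 FPKM in SCZ_NA, and 11.6, 18.9 and 22.5 FPKM in YH9_CA, against 9.60, 14.8 and 6.61 FPKM in YH9_NA. These groups overlapped in both cultivars. Its level in the cold was higher in SCZ_CA than in YH9_CA (log2 fold change 1.105 ± 0.31 SE, edgeR adjusted p = 0.0126), again with overlap, and this call was lost without SCZ_CA replicate 2 (log2 fold change 0.91, adjusted p = 0.042 by edgeR) or YH9_CA replicate 1 (log2 fold change 0.88, adjusted p = 0.0627 by edgeR) and by limma (adjusted p = 0.0602). CSS004796, described like the vacuolar transporter YPQ1 of yeast, had 19.0, 6.004 and 11.4 FPKM in SCZ_CA, against 12.8, 21.6 and 30.8 FPKM in SCZ_NA, and 16.97, 10.4 and 15.6 FPKM in YH9_CA, against 35.6, 17.7 and 14.2 FPKM in YH9_NA. It was called in neither cultivar in the cold, with overlap in both. At DA it had 26.5, 40.7 and 57.3 FPKM in SCZ_DA, above all SCZ_CA libraries (log2 fold change 1.60 ± 0.47 SE, edgeR adjusted p = 0.0146), a call lost without SCZ_CA replicate 2 or SCZ_DA replicate 3 (adjusted p = 0.0522 to 0.063 by edgeR) and with only the 2 groups setting the spread (adjusted p = 0.0568 by edgeR).

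The response to the cold differed between SCZ and YH9 in 5 members (5.32%), where 2.52% of all loci did (1.25% positive, 1.27% negative), and all 5 differences were negative, with a lower log2 fold change in SCZ. DESeq2 called 13 (2 positive, 11 negative), limma 11, and edgeR with only the 4 groups compared 3. The share of 2.52% is from the main fit, and those of the other fits are not given here. With 1 library left out, 14 were called without SCZ_CA replicate 1, 9 without SCZ_CA replicate 2, 2 without YH9_NA replicate 2 and 3 without SCZ_NA replicate 3, SCZ_CA replicate 3, YH9_NA replicate 1 or 3, or YH9_CA replicate 1 or 2. NPF3.1, CSS052741, of a type that moves nitrite and gibberellin in other plants, had 2.88, 1.22 and 1.29 FPKM in SCZ_CA, against 16.2, 25.9 and 27.0 FPKM in SCZ_NA (log2 fold change −3.53 ± 0.31 SE, edgeR adjusted p = 1.96e-06). YH9 leaves had 29.6, 30.7 and 24.4 FPKM in YH9_CA, against 46.7, 33.2 and 32.0 FPKM in YH9_NA (log2 fold change −0.45 ± 0.28 SE, edgeR adjusted p = 0.237). Neither pair of groups overlapped, but the SCZ libraries were lower in the cold by far more, and the difference was −3.09 (SE 0.41, adjusted p = 0.0023 by edgeR's test of the interaction). The call held with each of the 18 libraries left out.

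Both LHT genes that rose in YH9 were among the 5. LHT CSS051700 had 16.9, 38.8 and 15.0 FPKM in YH9_CA, against 0.204, 0.0492 and 0.557 FPKM in YH9_NA (log2 fold change 6.43 ± 0.90 SE, edgeR adjusted p = 0.000111), and 2.73, 1.39 and 0.974 FPKM in SCZ_CA, against 0.267, 2.41 and 3.57 FPKM in SCZ_NA. YH9_CA stood above all other groups, SCZ_CA and SCZ_NA overlapped, and the difference was −6.50 (SE 1.102, adjusted p = 0.00719 by edgeR), also with each library left out. LHT-like 8, CSS005524, had 8.06, 41.9 and 9.32 FPKM in YH9_CA, against 1.19, 1.0804 and 0.966 FPKM in YH9_NA (log2 fold change 4.16 ± 0.77 SE, edgeR adjusted p = 0.000899), and 2.11, 3.84 and 1.22 FPKM in SCZ_CA, against 4.19, 1.89 and 4.41 FPKM in SCZ_NA. YH9_CA replicate 2 was the highest library for both LHT genes. For CSS005524 the difference (−4.65, SE 1.01, adjusted p = 0.0265 by edgeR) was lost without SCZ_NA replicate 3, SCZ_CA replicate 3, YH9_CA replicate 2 or any of the 3 YH9_NA libraries (adjusted p = 0.0534 to 0.069 by edgeR).

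The remaining 2 are loci described as sodium-coupled neutral amino acid transporters, a family defined in animals. The locus that spans CSS047348 and CSS047352 had 9.53, 6.47 and 7.27 FPKM in SCZ_CA, against 14.4, 18.1 and 17.96 FPKM in SCZ_NA, just under a 2-fold decrease (log2 fold change −0.98 ± 0.19 SE, edgeR adjusted p = 0.000882). In YH9 it had 24.3, 20.7 and 18.8 FPKM in YH9_CA, against 16.6, 13.5 and 18.8 FPKM in YH9_NA (log2 fold change 0.36 ± 0.19 SE, edgeR adjusted p = 0.161). SCZ_CA lay below every other CA and NA library, and in SCZ_DA the locus stayed low, at 8.32, 7.65 and 5.49 FPKM (log2 fold change −1.28 vs. SCZ_NA). The difference in response, −1.33 (SE 0.27, adjusted p = 0.0184 by edgeR), was lost without YH9_NA replicate 2 or YH9_CA replicate 1 (adjusted p = 0.0546 to 0.0596 by edgeR) and with only the 4 groups compared (adjusted p = 0.0639 by edgeR). CSS051255 had 6.43, 2.66 and 1.98 FPKM in SCZ_CA, against 35.6, 15.2 and 24.7 FPKM in SCZ_NA (log2 fold change −2.76 ± 0.49 SE, edgeR adjusted p = 0.000454), and 3.31, 4.41 and 2.14 FPKM in YH9_CA, against 3.94, 3.40 and 2.06 FPKM in YH9_NA. SCZ_NA alone was high, and SCZ_DA stayed low at 5.14, 3.24 and 2.88 FPKM (log2 fold change −2.87 ± 0.49 SE, edgeR adjusted p = 0.00689). Its difference in response (−2.78, SE 0.66, adjusted p = 0.0394 by edgeR) kept its call in 6 of 18 fits that left out a library, and was lost without any of the YH9_NA or YH9_DA libraries, SCZ_NA replicate 1 or 3, SCZ_CA replicate 2 or 3, or YH9_CA replicate 1 or 2 (adjusted p = 0.0545 to 0.0927 by edgeR) and with only the 4 groups compared (adjusted p = 0.107 by edgeR).

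**Figure D4:**
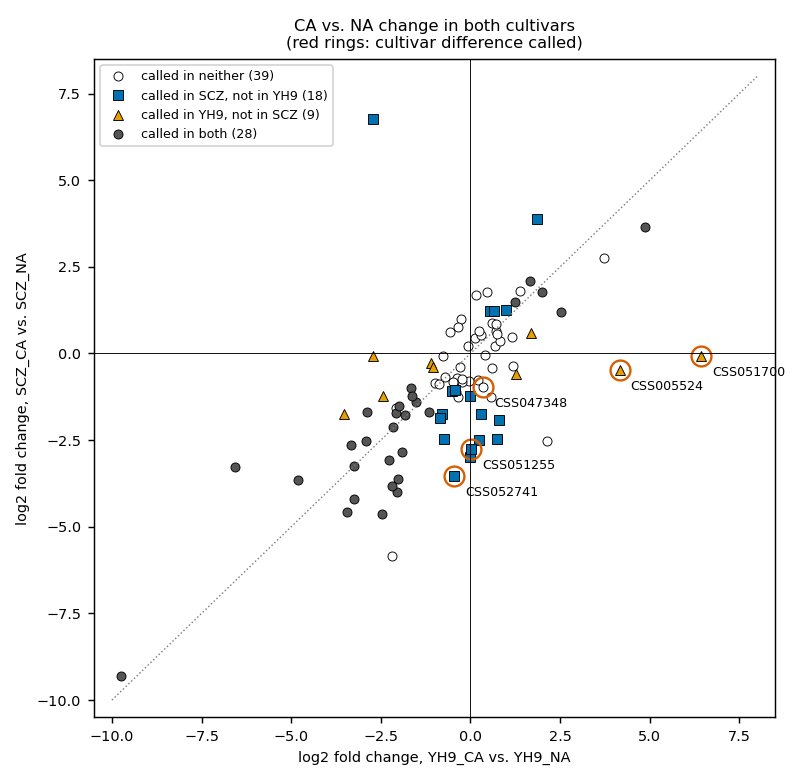
The log2 fold change of CA vs. NA in SCZ (y axis) against that in YH9 (x axis) for each of the 94 genes, with marks for calls in each cultivar, rings around the 5 genes whose cultivar difference was called and a dotted line where both changes are equal. The 28 genes called in both cultivars lie in the lower left and upper right fields, and the 5 ringed genes lie below the line. Genes with 0 counts in a whole group, such as CSS040138 at the lower left, have fitted values that are no measure of their size.

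**Figure D5:**
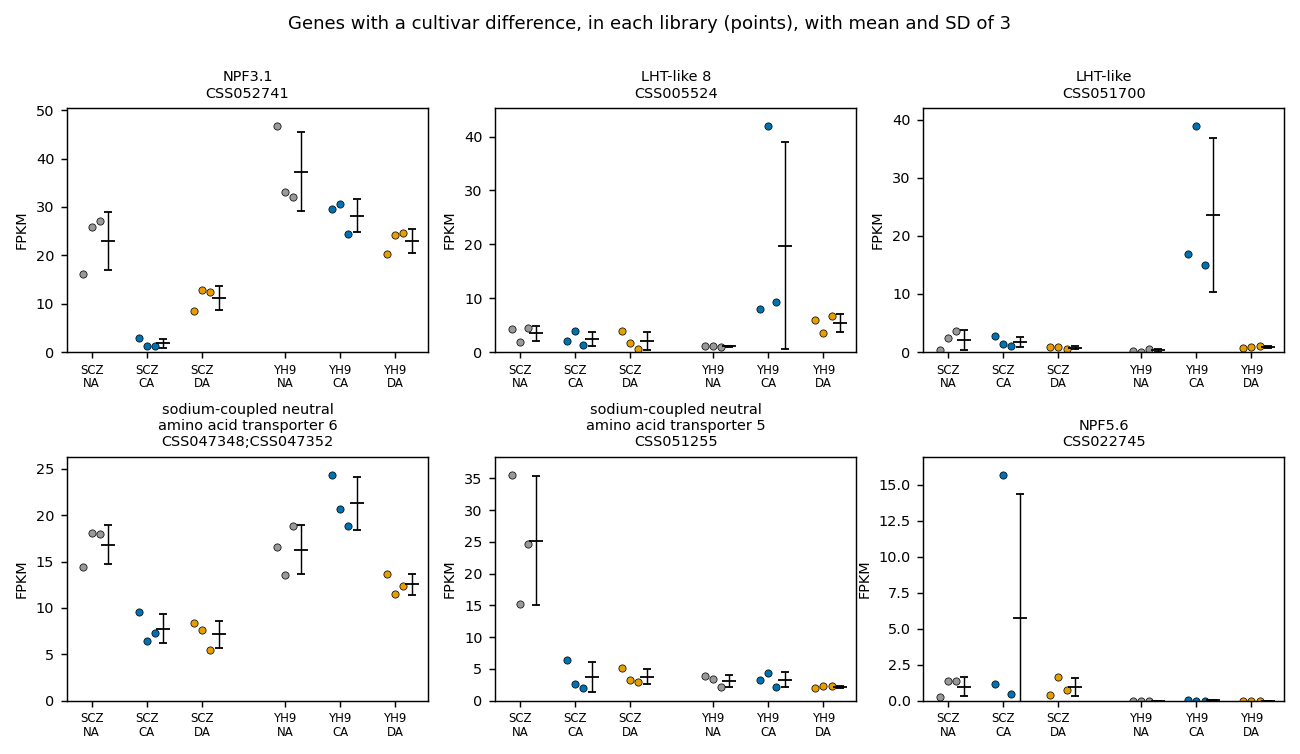
FPKM (y axis, from 0) in each library of the 5 genes whose response to the cold differed between the cultivars and of NPF5.6, coloured by stage, with the mean and SD of 3 libraries beside the points of each group and SCZ to the left of YH9. The 2 LHT genes are high in YH9_CA, NPF3.1 and both neutral amino acid transporters lie lower in SCZ_CA than in SCZ_NA, and NPF5.6 is near 0 in YH9.

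Between the cultivars at a fixed stage, the share of members called was close to that of all loci. In SCZ_NA vs. YH9_NA 17 members were called (18.1%), 9 higher and 8 lower in SCZ, against 19.2% of all loci (9.9% higher, 9.29% lower). In SCZ_CA vs. YH9_CA 25 were called (26.6%), 8 higher and 17 lower, against 27.3% (12.8% higher, 14.4% lower), and in SCZ_DA vs. YH9_DA 25 (26.6%), 10 higher and 15 lower, against 24% (11.4% higher, 12.6% lower). With 1 library left out the NA count ranged from 10 (without YH9_NA replicate 1) to 18 and the DA count from 15 (without SCZ_DA replicate 3) to 31 (without SCZ_CA replicate 2). On log2(FPKM + 1) with limma the median of all loci in SCZ_CA vs. YH9_CA was −0.17 in place of 0.02, in YH9_DA vs. YH9_NA 0.14 in place of 0, and in SCZ_DA vs. YH9_DA −0.13 in place of 0.03. The split of the members' calls was then 5 higher and 9 lower at NA, 6 and 20 at CA and 7 and 24 at DA. The shares of all loci called higher and lower by limma are not given here, so these splits have no background.

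Higher in SCZ at all 3 stages were 5 members (5.32%, against 6.02% of all loci) and lower were 2 (2.13%, against 6.57%). The 5 were the 3 glutamine synthetases CSS005056, CSS050989 and CSS016927 with NPF5.6 CSS022745 and neutral amino acid transporter 7 CSS010215. CSS022745 had 0.241, 1.33 and 1.34 FPKM in SCZ_NA, against 0 counts in all YH9_NA libraries, and was at least 42.1-fold higher in SCZ_NA and at least 42.7-fold higher in SCZ_DA than in YH9 of the same stage. In the cold it had 1.12, 15.7 and 0.448 FPKM in SCZ_CA, against 4, 0 and 0 counts in YH9_CA, and SCZ_CA replicate 2 held most of its reads. By limma on log2(FPKM + 1) its NA and DA calls were lost (adjusted p = 0.333 and 0.298). CSS010215 had 6.23, 6.75 and 6.53 FPKM in SCZ_NA, against 1.60, 0.933 and 2.48 FPKM in YH9_NA (log2 fold change 2.02 ± 0.33 SE, edgeR adjusted p = 0.000325), and 12.1, 18.4 and 12.3 FPKM in SCZ_CA, against 3.11, 4.20 and 2.81 FPKM in YH9_CA (log2 fold change 2.28 ± 0.33 SE, edgeR adjusted p = 0.000125). Every SCZ library was above every YH9 library of its stage, and in both cultivars CA lay above NA (log2 fold change 1.26 ± 0.32 SE, edgeR adjusted p = 0.00531 in SCZ, lost by limma, and a log2 fold change of 0.9995, just under the 2-fold line, in YH9).

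In SCZ_CA vs. YH9_CA 7 of the 33 NPF genes were lower in SCZ and 2 higher. The share called, 27.3%, was that of all loci (27.3%, with 12.8% higher and 14.4% lower). NPF5.1, CSS051260, had 2.18, 0.140 and 0.918 FPKM in SCZ_CA, against 17.4, 19.2 and 22.0 FPKM in YH9_CA (log2 fold change −3.98 ± 0.68 SE, edgeR adjusted p = 0.000479). NPF5.5, CSS002321, had 0.226, 0.607 and 0.0269 FPKM in SCZ_CA, against 4.52, 6.36 and 4.24 FPKM in YH9_CA (log2 fold change −3.98 ± 0.84 SE, edgeR adjusted p = 0.00218). NPF4.6-like CSS000649, of the type that imports abscisic acid in Arabidopsis, had 3.68, 0.612 and 0.390 FPKM in SCZ_CA, against 13.5, 7.52 and 16.0 FPKM in YH9_CA (log2 fold change −2.85 ± 0.71 SE, edgeR adjusted p = 0.00626). In all 3 the highest SCZ library was below the lowest YH9 library. At DA, after the cold, NPF2.13-like CSS009723 had 16.6, 20.8 and 8.36 FPKM in SCZ_DA, against 124, 77.4 and 74.1 FPKM in YH9_DA (log2 fold change −2.43 ± 0.51 SE, edgeR adjusted p = 0.00203). Its Arabidopsis namesake loads nitrate from old leaves into the phloem. The gene was also called lower in SCZ_NA than in YH9_NA, a call lost without any of the SCZ_NA or YH9_NA libraries (adjusted p = 0.0703 to 0.106 by edgeR).

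Most members called between DA and CA were higher in DA. In SCZ_DA vs. SCZ_CA 40 members were called (42.6%, against 29.1% of all loci), 27 higher and 13 lower, where 15.6% of all loci were higher and 13.5% lower. In YH9_DA vs. YH9_CA 38 were called (40.4%, against 23.5%), 28 higher and 10 lower, where 13.1% of all loci were higher and 10.4% lower. By limma on log2(FPKM + 1) the SCZ split was 26 higher and 7 lower, with the median of all loci at 0.14 in place of 0.01. The split of all loci by limma is not given here. These comparisons share their CA libraries with those of CA with NA. Against NA 4 members were called in SCZ_DA (4.26%, against 3.03% of all loci, 1.45% higher and 1.58% lower), 1 higher and 3 lower. They were the NADH glutamate synthase CSS035582, NPF3.1 CSS052741 and both sodium-coupled neutral amino acid transporters. Of these, CSS035582 and the locus that spans CSS047348 and CSS047352 were called in neither CA vs. NA comparison. The call of CSS052741 (log2 fold change −1.06 ± 0.28 SE, edgeR adjusted p = 0.0483) was kept without any of the 3 SCZ_CA libraries or YH9_NA replicate 1 and was lost in the 14 other fits that left out a library (adjusted p up to 0.129 by edgeR), with no filter on low values (adjusted p = 0.07 by edgeR), with only the 2 groups setting the spread (adjusted p = 0.176 by edgeR) and by limma (under 2-fold). In YH9_DA 0 members were called against YH9_NA by edgeR (0.376% of all loci, 0.0551% higher and 0.32% lower), while 8 had an unadjusted p under 0.05, limma called 0, and DESeq2 and the fit to only the 2 groups called 2 each. The SCZ count was 0 with only the 2 groups setting the spread, 11 with DESeq2 (1 higher, 10 lower), 2 without SCZ_NA replicate 2, SCZ_NA replicate 3 or SCZ_DA replicate 3, 9 without SCZ_CA replicate 2 and 7 without SCZ_CA replicate 3.

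In CA vs. NA, genes next to these in nitrogen metabolism were called at shares near those of all loci. Between the cultivars their shares were higher, with 25.3% at NA (all loci 19.2%), 34.7% at CA (27.3%) and 29.3% at DA (24%). These shares were uneven within the list. Of 19 NIN-like (NLP) regulators 10 were called at NA (52.6%), 11 at CA (57.9%) and 10 at DA (52.6%). Of 13 WAT1-related loci 0 were called at NA, 2 at CA (15.4%) and 2 at DA (15.4%). Of 75 tested loci for aminotransferases, glutamate decarboxylase, GABA and oligopeptide transporters, asparaginase, arginase, urease, WAT1-related proteins, nitrogen regulators and cofactor synthesis, 7 rose and 15 fell in SCZ_CA (29.3%, against 34.1% of all loci) and 7 rose and 13 fell in YH9_CA (26.7%, against 25.8%), with median log2 fold changes of −0.12 and −0.20. The most abundant of them, oligopeptide transporter 3, CSS045735, averaged 38.2 ± 10.5 FPKM in YH9_CA and 154 ± 57.7 FPKM in YH9_NA, and 81.1 ± 43.6 FPKM in SCZ_CA and 214 ± 127 FPKM in SCZ_NA (SD, n = 3 each). It fell in YH9 (log2 fold change −2.08 ± 0.56 SE, edgeR adjusted p = 0.0103) and was not called in SCZ (−1.33, SE 0.55, edgeR adjusted p = 0.0608). A probable GABA transaminase, CSS040863, which breaks down GABA, averaged 45.3 ± 4.97 FPKM in YH9_CA and 90.6 ± 13.2 FPKM in YH9_NA and fell (log2 fold change −1.02 ± 0.25 SE, edgeR adjusted p = 0.00586), while in SCZ its log2 fold change was −0.12 (SE 0.25). Of the aspartate aminotransferases, CSS022728, described as chloroplastic, had log2 fold changes of 0.45 in SCZ and −0.72 in YH9, and CSS010070 of 0.66 in SCZ and 0.69 in YH9, none called. CSS022728 was called higher in SCZ_CA than in YH9_CA (log2 fold change 1.03 ± 0.27 SE, edgeR adjusted p = 0.00802). Its difference in response was not called (1.17, SE 0.38, adjusted p = 0.106 by edgeR). CSS010070 was not called between the cultivars in CA (log2 fold change 0.27, SE 0.30). Glutamate decarboxylase 1, CSS048559, which makes GABA from glutamate, averaged 184 ± 17.9 FPKM in SCZ_CA and 77.0 ± 26.8 FPKM in SCZ_NA, and 23.7 ± 8.26 FPKM in YH9_CA and 11.8 ± 2.72 FPKM in YH9_NA (SD, n = 3 each). It rose in SCZ (log2 fold change 1.42 ± 0.25 SE, edgeR adjusted p = 0.000416), was just under 2-fold higher in YH9 (0.97, SE 0.25), and was higher in SCZ_CA than in YH9_CA by 3.18 on the log2 scale (SE 0.27). Alanine aminotransferase 1, CSS047084, rose in both cultivars, with log2 fold changes of 1.89 (SE 0.36) in SCZ and 1.06 (SE 0.36) in YH9. It was called higher in SCZ_CA than in YH9_CA (log2 fold change 1.04 ± 0.36 SE, edgeR adjusted p = 0.0346).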

How the data were processed

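Leaf mRNA of 18 libraries was sequenced, and the table deposited by the authors gives FPKM and estimated counts per locus. The submitters' processing notes list cutadapt 1.9, HISAT2 2.2.1, StringTie 2.1.6, UMI-tools, DESeq2 and edgeR. By the study's methods, reads were trimmed, aligned to a tea genome and quantified as FPKM by the authors with StringTie, in an earlier version than the notes give, and the notes name a mouse build, so the build was not settled and coordinates are printed only as the table gives them, with no build named. The program that wrote the deposited counts is not given in the sources used here. They are whole numbers, but between 28.8% and 30.9% of the nonzero counts up to 200 in a library were multiples of 4, so they were treated as estimated counts and tested as deposited, already whole. Their counting error is therefore unknown, and strand use is not stated.

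Loci with at least 1 FPKM in at least 3 libraries entered edgeR 4.0.16 in R 4.3.3 (trimmed mean of M-values scaling, quasi-likelihood F test, 1 mean per group over all 18 libraries). P-values were two-sided and adjusted by the Benjamini-Hochberg method over all 29019 loci. A locus was called at an adjusted p below 0.05 with at least a 2-fold change. SEs were the log2 fold change divided by the square root of F. The procedure was tested on simulated data. Groups came from the sample labels.

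Members were chosen by description and sorted into classes by it, and members and lists were chosen with earlier results of these data known. Named members are the 3 of each class with the highest mean FPKM, up to 8 of the largest rises and 8 of the largest falls in each comparison of CA with NA, or of SCZ with YH9 in NA or CA, that were called, did not overlap and averaged at least 5 FPKM in the higher group, and every member called in the difference between the cultivars. CSS020045 and CSS021822 were named to complete their classes, after their values were seen. Of the genes of the neighbouring pathways, the 6 with the highest mean FPKM are named. From those neighbours, loci described as thionin-like were dropped after the pattern for NIN-like proteins was seen to match them. Alternatives were median-of-ratios scaling, no filter on low values, DESeq2 1.42.0, limma 3.58.1 on log2(FPKM + 1), a replicate block, only the groups compared, and each library left out in turn.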

Additional observations from a re-analysis of the deposited data

Results flagged for a closer look

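5 members differed between SCZ and YH9 in their change in CA vs. NA, by edgeR's quasi-likelihood test of the difference itself over all 18 libraries, with the change in SCZ minus that in YH9 given on the log2 scale. The difference was −6.50 for CSS051700 (adjusted p = 0.00719), −4.65 for CSS005524 (adjusted p = 0.0265) and −3.09 for CSS052741 (adjusted p = 0.0023). It was −2.78 for CSS051255 (adjusted p = 0.0394) and −1.33 for CSS047348;CSS047352 (adjusted p = 0.0184). All of these values by edgeR are negative, so each level in CA relative to NA was lower in SCZ than in YH9.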

How the results depend on the processing

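The number of members called moved most where few were called. All shares of all loci given here are from the main fit, so the counts of the other fits have no such share beside them. Median-of-ratios scaling and no filter on low values kept every count within 1.5 times its value. With only the groups compared setting the spread, 26 members were called in SCZ_CA vs. SCZ_NA in place of 46, 25 in SCZ_DA vs. SCZ_CA in place of 40, 0 in SCZ_DA vs. SCZ_NA in place of 4, 2 in YH9_DA vs. YH9_NA in place of 0, and 3 in the difference between the cultivars in place of 5. DESeq2 called 11 in SCZ_DA vs. SCZ_NA, 2 in YH9_DA vs. YH9_NA and 13 in the difference between the cultivars, where limma called 11. The cause of these shifts was not tested, and the fits on the groups compared also held fewer libraries.

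Leaving out 1 library at a time gave 40 to 47 members in SCZ_CA vs. SCZ_NA, 33 to 38 in YH9_CA vs. YH9_NA, 33 to 43 in SCZ_DA vs. SCZ_CA, 28 to 39 in YH9_DA vs. YH9_CA, 22 to 29 in SCZ_CA vs. YH9_CA and 0 in YH9_DA vs. YH9_NA throughout. In SCZ_DA vs. SCZ_NA the count lay between 2 (without SCZ_NA replicate 2, SCZ_NA replicate 3 or SCZ_DA replicate 3) and 9 (without SCZ_CA replicate 2), with 7 without SCZ_CA replicate 3. In SCZ_NA vs. YH9_NA it lay between 10 (without YH9_NA replicate 1) and 18, and in SCZ_DA vs. YH9_DA between 15 (without SCZ_DA replicate 3) and 31. In the difference between the cultivars it lay between 2 (without YH9_NA replicate 2) and 14 (without SCZ_CA replicate 1), with 9 without SCZ_CA replicate 2 and 3 without SCZ_NA replicate 3, SCZ_CA replicate 3, YH9_NA replicate 1, YH9_NA replicate 3, YH9_CA replicate 1 or YH9_CA replicate 2.

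Replicate numbers did not pair the libraries, since 5 of 27 same-numbered pairs deviated together with r over 0.1 (range −0.149 to 0.31). With the replicate block, 42, 36, 36 and 33 members were called in SCZ_CA vs. SCZ_NA, YH9_CA vs. YH9_NA, SCZ_DA vs. SCZ_CA and YH9_DA vs. YH9_CA, 4 and 0 in SCZ_DA vs. SCZ_NA and YH9_DA vs. YH9_NA, 15, 27 and 24 between the cultivars in NA, CA and DA, and 5 in the difference between the cultivars. In SCZ_DA vs. SCZ_NA the 4 were not the same genes, since CSS052741 was lost (adjusted p = 0.0712 by edgeR) and CSS047108 was added. Among the named members, no value called in the main fit or in the alternative changed direction. Values called in neither were not checked for direction. With 3 libraries a group, absence of a call does not show that levels were alike.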
